A study of Homo sapiens with 16 samples.

Results

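Epithelial and mesenchymal identity was read from 10 genes of the count table. They were the cadherins CDH1, CDH2 and CDH6, the surface adhesion molecule EPCAM, the intermediate filament genes VIM, KRT8 and KRT19, and the transcription factors ZEB1, ZEB2 and SNAI2. The genes were picked by name for the proteins they encode, out of 57773 genes in the table, with earlier results of these data known. All 10 passed the filter on low counts that left 20175 genes for testing. RNA-seq was performed on 4 established lines of human clear cell renal carcinoma (ccRCC), named A498, CAKI-2, 769-P and 786-O, in 16 libraries. Every population, controls included, had received a lentivirus that delivers Cas9, a guide RNA and a drug resistance gene. Each line had 1 library with a non-targeting guide (sgCtrl) and 2 libraries with guides 4 and 5 against KDM5C (sgKDM5C), a histone H3 lysine demethylase gene on chromosome X. The 786-O and CAKI-2 lines had in addition 2 libraries with guides 2 and 4 against KDM5D (sgKDM5D), its counterpart on chromosome Y. The study describes selection with puromycin for the KDM5C experiment and names no selection drug for the KDM5D populations.

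These populations limit what the libraries can show. They were pools of edited cells and not clones, both KDM5C guides cut within the same exon, and all libraries of a line came from that line. The 2 guides served as the replicates of a mutant group, so that p-values measured the spread between guide libraries, and no control was replicated. A group with 1 library, as each control was, was assumed to vary like the groups with a pair of guides. This assumption carries more weight where a guide was left out, since every group of that target then held 1 library. KDM5C itself was at 166 to 239 CPM in the 4 controls and at 43.6 to 118 CPM in the 8 sgKDM5C libraries. CPM are counts per M (mega) of the library total after TMM scaling, a correction for RNA composition. The log2 ratio of KDM5C to the control of the line ranged from -1.93 to -0.80, so each sgKDM5C label was matched by a lower transcript level. The sgKDM5D labels could not be checked in this way, since the KDM5D log2 ratio of these libraries ranged from -0.39 to 0.04.

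Epithelial cells are held together by E-cadherin, the product of CDH1, whose extracellular domains pair between neighbouring cells while catenins tie it to actin. In an epithelial-mesenchymal transition (EMT), repressors of the SNAI and ZEB families bind short E2-box motifs and silence epithelial genes, and N-cadherin (CDH2) and vimentin (VIM) are gained. Kidney tubules depart from this textbook scheme, because proximal tubule cells, from which ccRCC is thought to arise, carry N-cadherin and the kidney cadherin CDH6, and ccRCC cells commonly hold vimentin together with keratins.

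The windows around the transcription start sites of ZEB1 and ZEB2 are shown because these paralogous repressors had unlike patterns over the lines, and because the ZEB and SNAI proteins recognise the same motif. Of the 7 ZEB1 windows in the table, the one shown was chosen for holding the most such motifs, and 5 held none. Sequences are from RefSeq on GRCh38.p14 and run from 250 bases before to 50 bases after the start. The ZEB1 window is chr10:31318966-31319265 on the plus strand and the ZEB2 window is chr2:144520070-144520369 on the minus strand. Capitals mark the E2-box, spelled CAGGTG or CACCTG so that either strand is covered.
ZEB1: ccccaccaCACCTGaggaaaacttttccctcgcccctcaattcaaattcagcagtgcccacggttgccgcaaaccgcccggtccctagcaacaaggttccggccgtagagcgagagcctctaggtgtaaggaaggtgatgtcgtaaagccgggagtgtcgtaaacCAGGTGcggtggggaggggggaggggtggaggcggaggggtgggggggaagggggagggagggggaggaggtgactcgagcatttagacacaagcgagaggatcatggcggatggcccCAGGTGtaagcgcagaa
ZEB2: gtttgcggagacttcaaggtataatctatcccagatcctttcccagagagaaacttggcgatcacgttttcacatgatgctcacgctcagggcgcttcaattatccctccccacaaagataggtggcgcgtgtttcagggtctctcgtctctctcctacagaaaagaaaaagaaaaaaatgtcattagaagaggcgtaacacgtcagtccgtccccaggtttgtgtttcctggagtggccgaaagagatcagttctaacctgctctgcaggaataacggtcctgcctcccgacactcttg
The ZEB1 window held 3 E2-boxes, whose first bases lay at -242, -85 and 34 from the start site, and the ZEB2 window held none. Of 35116 windows of the same length in the RefSeq table, 20.6% held at least 1 E2-box and 0.64% held at least 3. These are rates per window, whereas the ZEB1 window shown was the highest of 7. The table matched 5 of the 10 genes with 12 windows, namely 2 of CDH2, 1 of KRT8, 1 of VIM, 7 of ZEB1 and 1 of ZEB2. A motif was found in 2 of these 12, both of them at ZEB1, and the other ZEB1 motif lay at -57 in a window that starts upstream. CDH1, CDH6, EPCAM, SNAI2 and KRT19 were not in the table. A match of letters is a description of the window and not evidence of binding. Whether the motifs relate to the levels of ZEB1 and ZEB2 was not tested.

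Levels were first compared between the 4 lines. E-cadherin mRNA was found almost entirely in CAKI-2 among these 4 lines, whereas N-cadherin mRNA was present in all of them. The CDH1 gene (ENSG00000039068, GRCh37 16:68771195-68869440, plus strand, protein coding) was at 11.4 CPM in the CAKI-2 control. It was at 17.2 and 31.9 CPM with sgKDM5C guides 4 and 5 and at 16.7 and 22.5 CPM with sgKDM5D guides 2 and 4 of the same line. In A498 the CDH1 level was 0.213 CPM in the control and 0.150 and 0.152 CPM with the KDM5C guides. A count of 1 was found over the 5 libraries of 786-O, and no count over the 3 libraries of 769-P. The CAKI-2 libraries were thus far above all others, without overlap, and A498 lay just above the limit of detection. In bulk RNA, fewer cells with a transcript and less of it per cell cannot be told apart.

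Summed over libraries, the 3361 CDH1 counts of CAKI-2 stood against 13 counts in A498, a ratio per library total of 122 with an exact 95% interval of 71.0 to 228. Against the 1 count of 786-O the ratio was 2920 with an exact interval of 524 to 115000. CDH1 was at least 529-fold higher in CAKI-2 than in 769-P, computed against a floor of 3 counts over that line, which corresponds to 0.0391 CPM. These intervals cover counting error only. In the edgeR quasi-likelihood test, which was fitted to all 16 libraries with Benjamini-Hochberg adjustment over all genes tested, CDH1 was lower in A498 than in CAKI-2 by a log2 fold change of -6.51 (SE 0.418, adjusted p = 5.12e-08). Line contrasts averaged the sgCtrl and sgKDM5C groups of each line, and a gene was called at an adjusted p under 0.05.

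N-cadherin mRNA (CDH2, ENSG00000170558, GRCh37 18:25512843-25757910, minus strand) was graded over the lines, with no overlap between any of them. The 5 libraries of 786-O lay at 302.9 CPM (sgCtrl), 283 and 330.3 CPM (sgKDM5C guides 4 and 5) and 328 and 290.4 CPM (sgKDM5D guides 2 and 4). In CAKI-2 CDH2 was at 138 CPM in the control, 161 and 158 CPM with the KDM5C guides and 136 and 141 CPM with the KDM5D guides. The A498 levels were 62.9, 95.6 and 98.1 CPM for sgCtrl and KDM5C guides 4 and 5, and those of 769-P were 375, 447 and 397 CPM in the same order. CDH2 was highest in 769-P, followed by 786-O (log2 difference 0.38, SE 0.114, adjusted p = 0.0116), by CAKI-2 (1.04 below 786-O, SE 0.115, adjusted p = 2.40e-06) and by A498 (0.92 below CAKI-2, SE 0.116, adjusted p = 7.71e-06). The log2 difference between 769-P and 786-O was 0.31 with the control libraries alone (adjusted p = 0.243), where each line had 1 library and the spread came from the guide pairs.

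The kidney cadherin CDH6 (ENSG00000113361, GRCh37 5:31193793-31329253, plus strand) separated A498 from the other lines and varied more between guide libraries than CDH2 did. It was at 166 CPM in the 786-O control and at 407, 143, 269 and 149.9 CPM with sgKDM5C guides 4 and 5 and sgKDM5D guides 2 and 4. In CAKI-2 the range was 77.5 to 96.3 CPM with a median of 87.7 CPM. The A498 libraries held 4.13, 11.7 and 5.48 CPM for sgCtrl and guides 4 and 5, against 102, 215 and 147.5 CPM in 769-P. CDH6 was lower in A498 than in CAKI-2 by a log2 difference of 3.95 (SE 0.431, adjusted p = 1.97e-06). The neighbouring steps from 786-O to 769-P (0.65, SE 0.353, adjusted p = 0.143) and from 769-P to CAKI-2 (0.56, SE 0.353, adjusted p = 0.181) were not called, although the first of these ranges overlapped and the second did not. The comparison of CAKI-2 with 786-O was called (-1.21, SE 0.357, adjusted p = 0.00861) and lost its call with the control libraries alone (-0.79, adjusted p = 0.289). Without the guide 5 libraries the steps from 786-O to 769-P (adjusted p = 0.0073) and from 769-P to CAKI-2 (adjusted p = 0.00965) were both called.

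Dividing by the merged length of all annotated exons of a gene gives RPKM, CPM per kilobase, a rough scale for setting genes beside each other. The merged length can exceed that of the transcripts present, and ratios and ranks between genes depend on it. CDH2 held the largest part of the summed RPKM of CDH1, CDH2 and CDH6 in each of the 16 libraries. Its part was 50.2% to 77.0% in 786-O, 58.7% to 66.7% in CAKI-2, 92.0% to 96.1% in A498 and 75.1% to 84.2% in 769-P. CDH6 made up 23.0% to 49.8% of the sum in 786-O, 23.2% to 30.2% in CAKI-2, 3.70% to 7.80% in A498 and 15.8% to 24.9% in 769-P. CDH1 reached 7.35% to 16.8% in CAKI-2, so that even the line with E-cadherin mRNA held several times more N-cadherin mRNA per length. The plot of the cadherins per length shows these levels for each library.

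**Figure D1:**
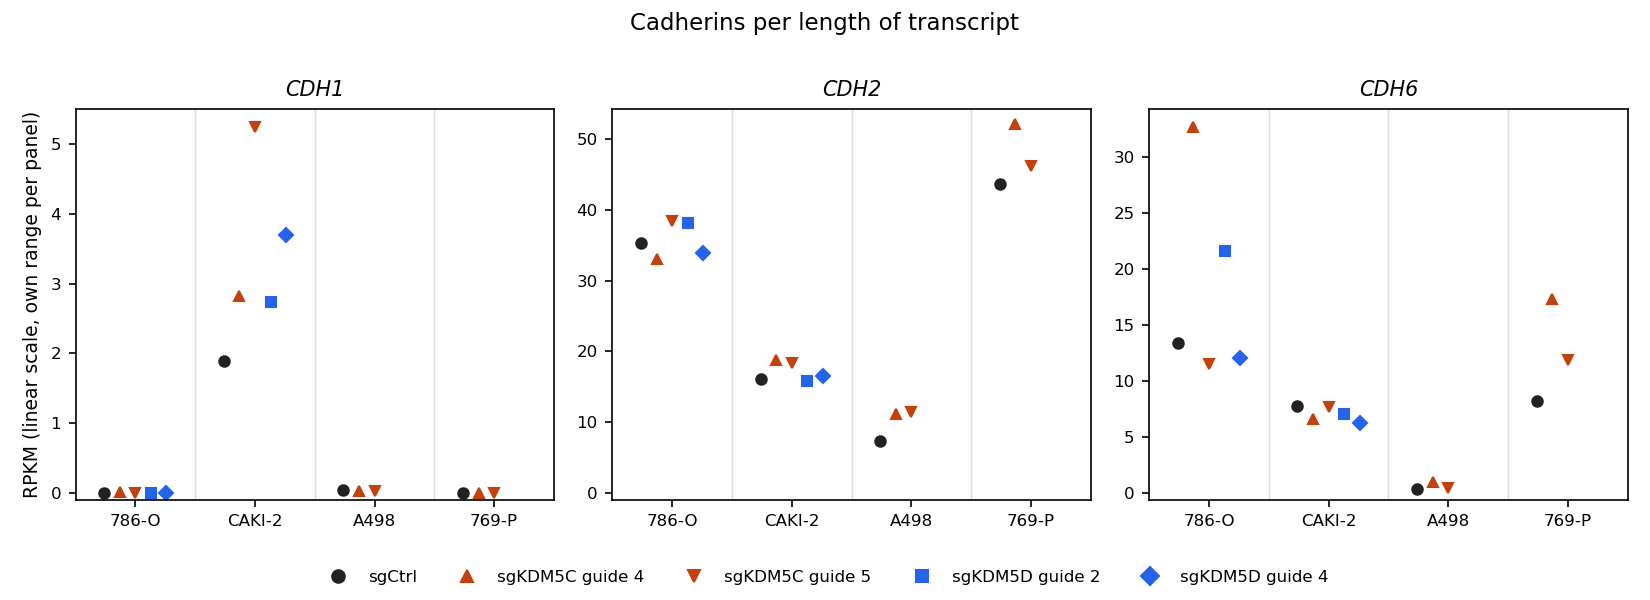
RPKM of CDH1, CDH2 and CDH6 (vertical axes, linear, each with its own range) in the 16 libraries, ordered by line on the horizontal axis, with symbols for the guide target; each point is 1 library. CDH1 lay at 1.88 to 5.25 RPKM in CAKI-2 and at 0.0350 RPKM or less in every library of the other lines, CDH2 was highest in 769-P, and the CDH6 point of sgKDM5C guide 4 stood above the others of 786-O and of 769-P.

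EPCAM (ENSG00000119888, GRCh37 2:47572297-47614740, plus strand) encodes an epithelial surface glycoprotein that mediates calcium-independent adhesion. Its mRNA did not follow CDH1, since it was highest in 769-P, where CDH1 had no count. EPCAM was at 16.9, 22.3 and 22.9 CPM in 769-P for sgCtrl and guides 4 and 5 of sgKDM5C, and at 9.21, 14.8 and 9.10 CPM in CAKI-2, where the sgKDM5D libraries held 10.7 and 18.1 CPM. In 786-O the 5 libraries ranged from 0.296 CPM (sgKDM5D guide 2) to 2.22 CPM (sgKDM5C guide 4), and A498 lay at 0.383, 0.826 and 0.533 CPM. The log2 difference between CAKI-2 and 786-O was 2.74 (SE 0.437, adjusted p = 7.76e-05), and these ranges did not overlap. The outer steps were smaller and their ranges overlapped. The excess of 769-P over CAKI-2 (0.90, SE 0.376, adjusted p = 0.0490) was not called with RLE size factors (adjusted p = 0.0596), with DESeq2 (adjusted p = 0.246) or without the guide 5 libraries (adjusted p = 0.0737), and was called in 6 of 12 alternatives. The step from 786-O down to A498 (-1.61, SE 0.576, adjusted p = 0.0228) was called in 8 of 12 alternatives. The adjusted p rose to 0.129 with the sgKDM5C libraries alone (-1.12) and to 0.0981 without the guide 4 libraries (-1.32).

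Among the filaments, VIM (ENSG00000026025, GRCh37 10:17270240-17279592, plus strand) was abundant in every library and split the lines into pairs. The VIM levels in 786-O were 1594, 1757 and 1811 CPM for sgCtrl and the KDM5C guides and 1557 and 1658 CPM for the KDM5D guides. In 769-P VIM was at 1689, 2604 and 1744 CPM, with the highest value for guide 4. CAKI-2 ranged from 618 to 673 CPM and A498 from 586 to 718 CPM. The pairs did not overlap, and VIM was lower in A498 than in 786-O by a log2 difference of 1.34 (SE 0.152, adjusted p = 2.21e-06) and lower in CAKI-2 by 1.36 (SE 0.152, adjusted p = 2.62e-06). Within the pairs, 769-P and 786-O (0.18, SE 0.149, adjusted p = 0.331) and A498 and CAKI-2 (0.02, SE 0.149, adjusted p = 0.935) were not called, and the former was called without the guide 5 libraries (0.33, adjusted p = 0.0159).

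Keratin 8 forms heteropolymers with type I keratins in simple epithelia. KRT8 (ENSG00000170421, GRCh37 12:53290971-53343738, minus strand) was high in all 16 libraries and highest in A498. The A498 libraries held 2467, 2059 and 1657 CPM for sgCtrl and guides 4 and 5, without overlap with the other lines. KRT8 ranged from 889 to 1146 CPM in 786-O, from 1008 to 1555 CPM in CAKI-2 and from 1025 to 1327 CPM in 769-P, and these 3 ranges overlapped. The excess of A498 over 769-P was 0.79 as log2 (SE 0.145, adjusted p = 2.03e-04), while the steps from 769-P to CAKI-2 (0.07, SE 0.143, adjusted p = 0.689) and from CAKI-2 to 786-O (0.15, SE 0.143, adjusted p = 0.395) were not called. The KRT18 gene, whose product pairs with keratin 8, overlaps KRT8 on the other strand. Its counts came to 12.8% of those of KRT8, and 51 rows of KRT8 pseudogenes held 0.757% to 1.56% of its counts, depending on the library. Whether counting used strand was not given in the sources used here, so the KRT8 level carries this uncertainty.

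KRT19 (ENSG00000171345, GRCh37 17:39679869-39684560, minus strand) encodes the smallest type I keratin and, unlike KRT8, was graded over the lines and came down to traces in the lowest. In CAKI-2 KRT19 was at 422, 322 and 381 CPM for sgCtrl and the KDM5C guides and at 480 and 412 CPM for the KDM5D guides. The 786-O libraries held 200.02, 192, 270.6, 94.3 and 149.9 CPM in the same order. KRT19 was at 13.7, 15.1 and 15.2 CPM in A498 and at 0.0824, 0.213 and 0.123 CPM in 769-P. No ranges overlapped. The steps were 0.84 from CAKI-2 to 786-O (SE 0.181, adjusted p = 9.75e-04), 3.90 from 786-O to A498 (SE 0.214, adjusted p = 1.57e-09) and 6.87 from A498 to 769-P (SE 0.362, adjusted p = 9.49e-10). The 769-P libraries held 2, 6 and 3 KRT19 counts, near the floor of 3 counts, so the size of the last step is uncertain. The RPKM ratio of KRT19 to KRT8 was 0.866 to 0.977 in CAKI-2, 0.247 to 0.732 in 786-O, 0.0164 to 0.0270 in A498 and 0.000183 to 0.000613 in 769-P. The RPKM ratio of VIM to KRT8 was 1.84 to 2.63 in 786-O and 1.69 to 3.38 in 769-P, against 0.576 to 0.815 in CAKI-2 and 0.365 to 0.470 in A498. Merged exon lengths of 2336 (KRT19), 6881 (KRT8) and 5176 (VIM) bases enter these ratios.

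**Figure D2:**
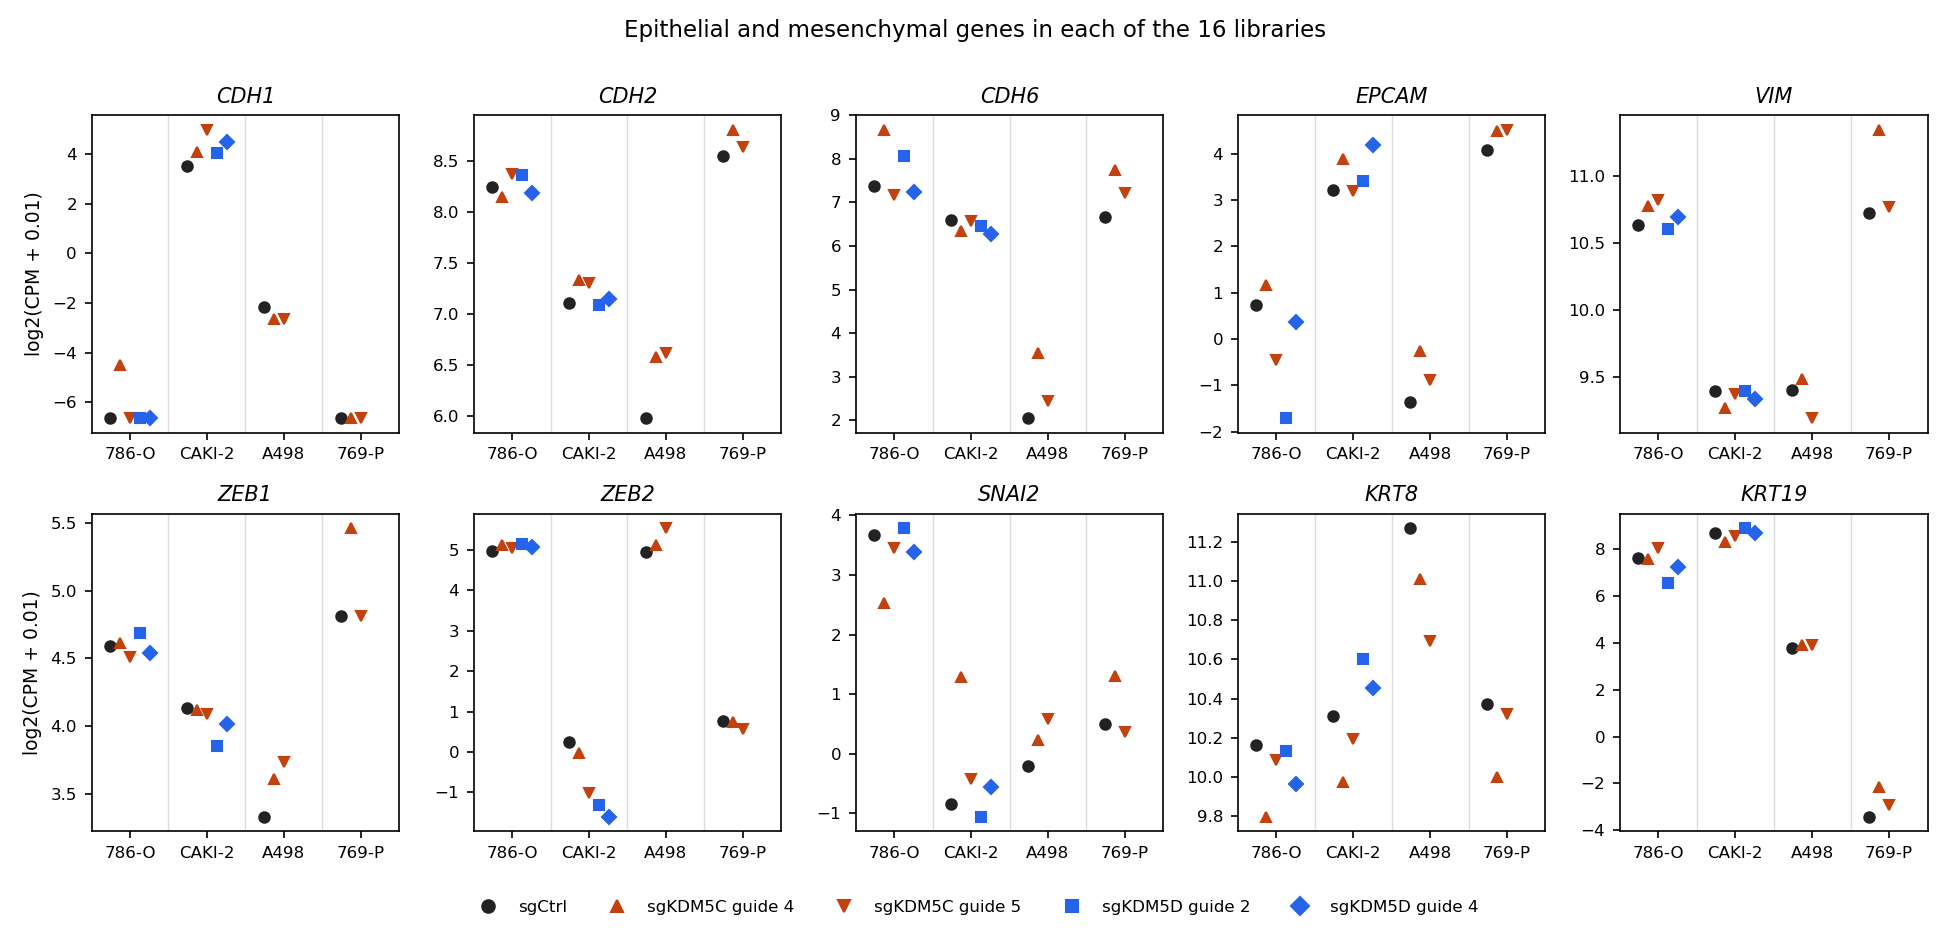
Level of each of the 10 genes in the 16 libraries as log2(CPM + 0.01) on the vertical axis (own range per panel), with the 4 lines on the horizontal axis and symbols for the guide target; each point is 1 library. Points of a line cluster for most genes, CDH1 with no count lies at the bottom of its panel, and KRT19 runs from 480 CPM in CAKI-2 to 0.0824 CPM in 769-P.

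The transcription factors of EMT differed between the lines in unlike ways. ZEB1 (ENSG00000148516, GRCh37 10:31607424-31818742, plus strand), which represses CDH1 in many epithelial cancers, was found in every library. It was at 24.1, 24.5, 22.8, 25.8 and 23.3 CPM in the 5 libraries of 786-O and at 17.6, 17.3, 17.02, 14.4 and 16.2 CPM in those of CAKI-2, in the order sgCtrl, sgKDM5C guides 4 and 5, sgKDM5D guides 2 and 4. The A498 libraries held 10.04, 12.2 and 13.3 CPM, and those of 769-P 28.0, 44.1 and 28.1 CPM with the highest value for guide 4. No ranges overlapped, yet the step from 769-P to 786-O was not called (0.41, SE 0.169, adjusted p = 0.0557). It was called without the guide 5 libraries (0.53, adjusted p = 0.00512). The steps from 786-O to CAKI-2 (0.46, SE 0.170, adjusted p = 0.0291) and from CAKI-2 to A498 (0.62, SE 0.174, adjusted p = 0.00622) were called. The former was not called with the control libraries alone (adjusted p = 0.198), and neither was called with the sgKDM5C libraries alone (adjusted p = 0.0573 and 0.0775). Counts of the antisense gene ZEB1-AS1, which overlaps ZEB1, came to 14.2% of those of ZEB1.

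ZEB2 (ENSG00000169554, GRCh37 2:145121931-145278624, minus strand) was near its highest in A498, where ZEB1 was lowest, and near absent from the other pair of lines. Its levels were 31.0, 34.5 and 46.3 CPM in A498 for sgCtrl and guides 4 and 5, and 31.3, 34.6, 32.8, 35.0 and 33.5 CPM in 786-O. In 769-P ZEB2 was at 1.69, 1.67 and 1.48 CPM, and in CAKI-2 at 1.17, 0.977, 0.484, 0.390 and 0.318 CPM. A498 and 786-O overlapped (0.12, SE 0.181, adjusted p = 0.567). ZEB2 was lower in 769-P than in 786-O by a log2 difference of 4.31 (SE 0.232, adjusted p = 2.43e-09). CAKI-2 lay below 769-P by a further 0.85 (SE 0.258, adjusted p = 0.0103), a step that was not called with the control libraries alone (0.52, adjusted p = 0.323). The RPKM ratio of ZEB2 to ZEB1 was 0.934 to 1.15 in A498 and 0.429 to 0.476 in 786-O, against 0.0065 to 0.0221 in CAKI-2 and 0.0125 to 0.0199 in 769-P. Merged exon lengths of 26151 (ZEB2) and 8650 (ZEB1) bases enter this ratio. In CPM the 786-O control held more ZEB2 than ZEB1, at 31.3 against 24.1. CDH1 at or near the limit of detection was thus found with high ZEB2, in A498 and 786-O, and with low ZEB2, in 769-P.

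SNAI2 (ENSG00000019549, GRCh37 8:49830157-49834299, minus strand), which encodes the repressor Slug, was mainly a gene of 786-O among the 4 lines. In this line SNAI2 was at 12.7 CPM in the control, at 5.74 and 10.96 CPM with the KDM5C guides and at 13.8 and 10.5 CPM with the KDM5D guides. CAKI-2 ranged from 0.468 to 2.44 CPM, A498 from 0.851 to 1.48 CPM and 769-P from 1.27 to 2.45 CPM, all of them below 786-O. SNAI2 was lower in 769-P than in 786-O by a log2 difference of 2.66 (SE 0.420, adjusted p = 1.04e-04). The other steps, from 769-P to A498 (0.61, SE 0.480, adjusted p = 0.272) and from A498 to CAKI-2 (0.21, SE 0.503, adjusted p = 0.727), were not called, and the former was called without the guide 5 libraries (0.89, adjusted p = 0.0217). The fold between CAKI-2 and 786-O (-3.49, SE 0.444, adjusted p = 9.38e-06) was -4.20 without the guide 4 libraries and -2.88 without the guide 5 libraries, since guide 4 of CAKI-2 held the highest and guide 4 of 786-O the lowest SNAI2 level of its line.

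**Figure D3:**
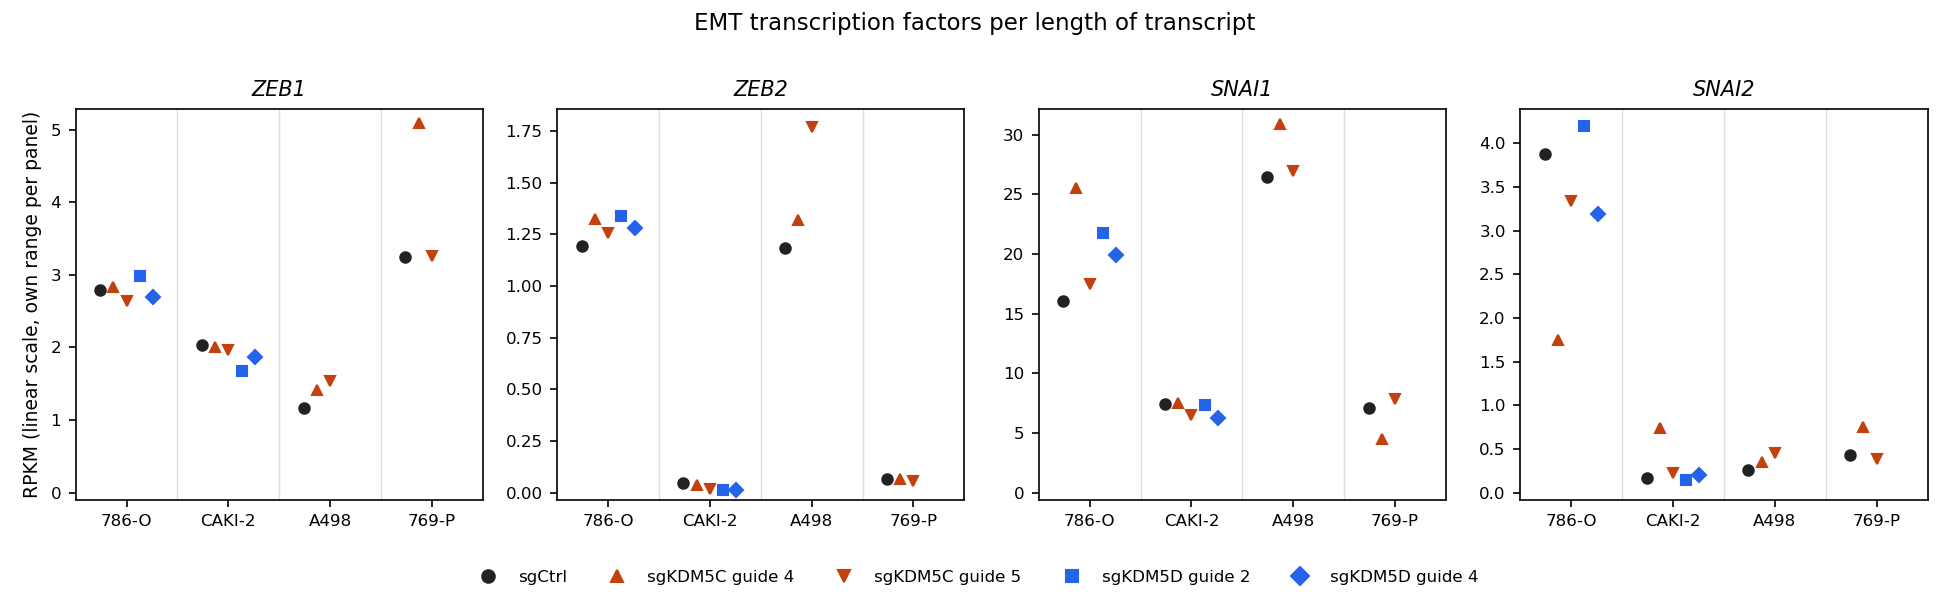
RPKM of the EMT transcription factor genes ZEB1, ZEB2, SNAI1 and SNAI2 (vertical axes, linear, each with its own range) in the 16 libraries, grouped by line on the horizontal axis, with symbols for the guide target; each point is 1 library. ZEB2 was at 1.19 to 1.77 RPKM in 786-O and A498 and at 0.0646 RPKM or less in CAKI-2 and 769-P, and SNAI2 was at 1.75 to 4.20 RPKM in 786-O and at 0.748 RPKM or less in the other lines.

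Counted over the 10 genes, most of the line contrasts were called, as were most of all genes. CAKI-2 differed from 786-O in 9 of 10 (3 higher, 6 lower), where 63.3% of all genes tested were called. A498 differed from 786-O in 9 (2 higher, 7 lower; 68.7% of all genes) and from CAKI-2 in 8 (2 higher, 6 lower; 65.8%). The 769-P line differed from 786-O in 5 (2 higher, 3 lower; 50% of all genes), from CAKI-2 in 7 (5 higher, 2 lower; 63.8%) and from A498 in 9 (5 higher, 4 lower; 69.9%). The share of the 10 genes was equal to that of all genes for 769-P against 786-O and above it for the other pairs of lines. The cell line accounted for 75.9% (KRT8) to 99.3% (KRT19) of the sum of squares of log2 CPM over the libraries, with 7 of the 10 above the 91.4% that was the median of all genes tested. The 10 genes were chosen with earlier results of these data known, and the guide libraries of a line are not independent of it. All these shares are therefore descriptions.

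**Figure D4:**
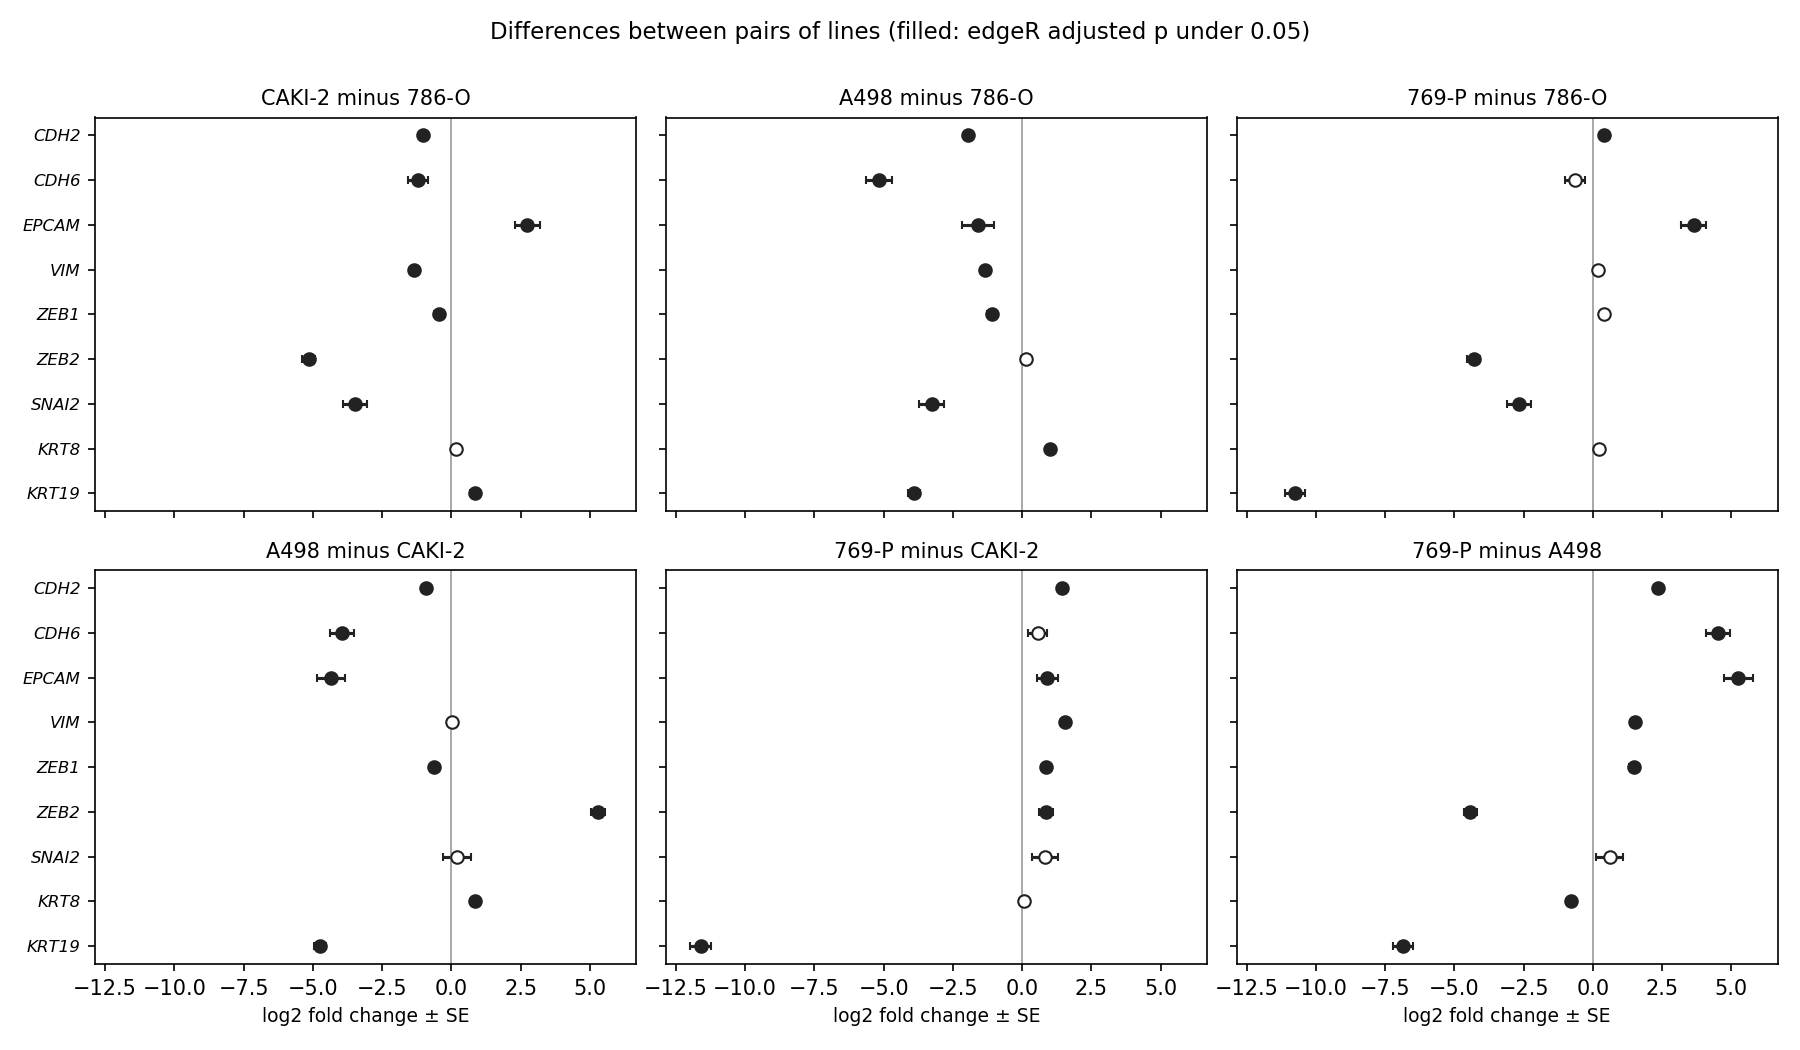
Log2 fold change between lines (horizontal axis) for 9 genes (vertical axis) in the 6 pairs of lines; bars are SE from the edgeR fit and filled points have an adjusted p under 0.05. CDH1 is left out because it had no count in 769-P and 1 in 786-O. KRT19 gives the points farthest to the left, at -10.77 and -11.61 in 769-P against 786-O and CAKI-2, where 769-P held 2 to 6 counts per library. The VIM points reach at most 1.54.

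The comparison of the mutant populations with their controls asked whether loss of KDM5C moved these genes along the epithelial to mesenchymal axis. With edgeR, 0 of 10 genes were called for sgKDM5C in 786-O, CAKI-2, A498 or 769-P, for the mean of the 4 lines, or for the difference between lines. Few genes of any kind were called, namely 0.00991%, 0%, 0.00496% and 0.00496% of all genes tested in the 4 lines, 0.00991% for the mean and 0% for the difference. DESeq2 also called 0 of the 10 in each line and for the mean. At an unadjusted p under 0.05, the edgeR test found CDH1 in CAKI-2, CDH2 in A498, and CDH2, CDH6 and KRT8 for the mean, where 1.94%, 5.55% and 5.18% of all genes met it. None of the 10 met it in 786-O, in 769-P or for the difference between lines, where 2.92%, 3.32% and 2.29% of all genes did.

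KRT8 had 1 direction under sgKDM5C, with a level below the control in 8 of 8 sgKDM5C libraries and log2 ratios between -0.57 and -0.05. Both guide libraries of a line were set against the same control library, so an unusual control shifts both ratios. Such counts of libraries, for KRT8 and for CDH2, are therefore not independent comparisons. These genes are singled out of the 10, and the share of all genes with such counts is not given here. The KRT8 difference for the mean of the lines was -0.26 (SE 0.100, unadjusted p = 0.0207, adjusted p = 0.901). The sgKDM5D libraries of KRT8 were on both sides of their controls, at log2 ratios of -0.20 to 0.29. CDH2 was above the control in 7 of 8 sgKDM5C libraries, with log2 ratios from -0.10 to 0.64, and differed by 0.26 for the mean (SE 0.0815, unadjusted p = 0.00707, adjusted p = 0.901). The part of A498 in this was large, since CDH2 stood at 95.6 and 98.1 CPM there against 62.9 CPM in the control (0.62, SE 0.167, unadjusted p = 0.00227, adjusted p = 0.728).

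CDH6 was above the control in 5 of 8 sgKDM5C libraries, and its level differed between the libraries of the 2 guides. Each guide had 1 library per line, so guide, culture and library cannot be told apart. Guide 4 exceeded guide 5 by a factor of 2.84 in 786-O, 2.14 in A498 and 1.46 in 769-P, while in CAKI-2 the factor was 0.853. The mean over lines was 0.62 (SE 0.268, unadjusted p = 0.0354, adjusted p = 0.901). It was 0.91 (adjusted p = 0.0306) when the guide 5 libraries were left out, a setting in which each sgKDM5C group was 1 library against 1 control and the sgKDM5D pairs supplied the spread. Testing every gene with at least 1 count called CDH6 for the mean (0.63, adjusted p = 1.09e-05), in A498 (1.05, adjusted p = 0.0316) and in 769-P (0.84, adjusted p = 0.0354). CDH6 was called in 2 of 14 alternatives for the mean, and in 1 of 11 each in A498 and in 769-P. All genes called for the mean numbered 0 to 304 over the alternatives, against 2 in the main fit. The number under each single setting is not given here, so whether the CDH6 calls stand out from those of all genes was not tested. Over all well-counted genes, guides 4 and 5 also differed from each other more in 786-O and 769-P than in CAKI-2 and A498. The guides differed by more than 1 on the log2 scale in 5.95% of 12075 well-counted genes in 786-O and 3.33% in 769-P, but in 0.6% in CAKI-2 and 0.7% in A498. VIM in 769-P, at 2604 CPM with guide 4 and 1744 CPM with guide 5 against 1689 CPM in the control, was not called (0.36, SE 0.213, adjusted p = 1) except without the guide 5 libraries (0.62, adjusted p = 0.0488), which again set 1 library against 1 control with the spread of the sgKDM5D pairs. Without the guide 4 libraries of 786-O and 769-P, CDH6 differed by 0.32 for the mean (adjusted p = 0.850) and by 0.55 in 769-P, and VIM of 769-P by 0.0647 (adjusted p = 1 for both).

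In CAKI-2, the line with E-cadherin mRNA, CDH1 was above the control in all 4 mutant libraries, at 17.2, 31.9, 16.7 and 22.5 CPM against 11.4 CPM. The difference was 1.10 for sgKDM5C (SE 0.382, unadjusted p = 0.0137, adjusted p = 1) and 0.78 for sgKDM5D (SE 0.378, unadjusted p = 0.0626, adjusted p = 1). Both rest on the same control library. ZEB2 of CAKI-2 was below that control in the same 4 libraries, at 0.977, 0.484, 0.390 and 0.318 CPM against 1.17 CPM. These ZEB2 levels rest on 28, 21, 10 and 9 counts against 43 in the control. In edgeR the ZEB2 difference was -0.747 for sgKDM5C (SE 0.3725, unadjusted p = 0.0648). It was -1.72 for sgKDM5D (SE 0.427, unadjusted p = 0.00123, adjusted p = 1). The share of all genes with all 4 libraries on the same side of the control is not given here. Whether the CDH1 and ZEB2 levels are related was not tested. SNAI2 of CAKI-2 was at 2.44 CPM with sgKDM5C guide 4, and at 0.468 to 0.737 CPM in the other 4 libraries.

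For sgKDM5D, in 786-O, in CAKI-2 and as a difference, edgeR and DESeq2 called 0 of the 10 throughout, where edgeR called 0.0149%, 0% and 0.00496% of all genes. At an unadjusted p under 0.05 there was KRT19 in 786-O, ZEB2 in CAKI-2, and both of these for the difference between the lines, where 1.82%, 0.773% and 1.47% of all genes met it. KRT19 of 786-O was at 94.3 and 149.9 CPM against 200.02 CPM in the control (-0.71, SE 0.249, unadjusted p = 0.0126, adjusted p = 1). The sgKDM5C libraries of 786-O held 192 and 270.6 CPM, above both sgKDM5D libraries. In this comparison of sgKDM5C with sgKDM5D, KRT19 had the smallest p of the 10 (0.92, SE 0.210, unadjusted p = 6.21e-04, adjusted p = 0.280) and was the 1 of them under 0.05, where 4.78% of all genes were. DESeq2 called KRT19 there (adjusted p = 0.0149), as did edgeR without the sgKDM5D guide 4 libraries (1.30, adjusted p = 0.0488) or without the sgKDM5C guide 4 libraries of 786-O and 769-P (1.16, adjusted p = 0.0362), which leave 1 library of that target in 786-O. In 786-O, KRT19 was called in 4 of 12 alternatives. All genes called there numbered 0 to 533 over these alternatives, the thresholds of the study included, against 13 in the main fit. With edgeR the comparison of sgKDM5C with sgKDM5D called 0 of the 10 in either line, with 0% of all genes in CAKI-2 and 0.0644% in 786-O. Unadjusted p-values under 0.05 in CAKI-2 were found for ZEB2 (0.98), SNAI2 (1.41) and KRT8 (-0.44), each with an adjusted p of 1, beside 3.38% of all genes.

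**Figure D5:**
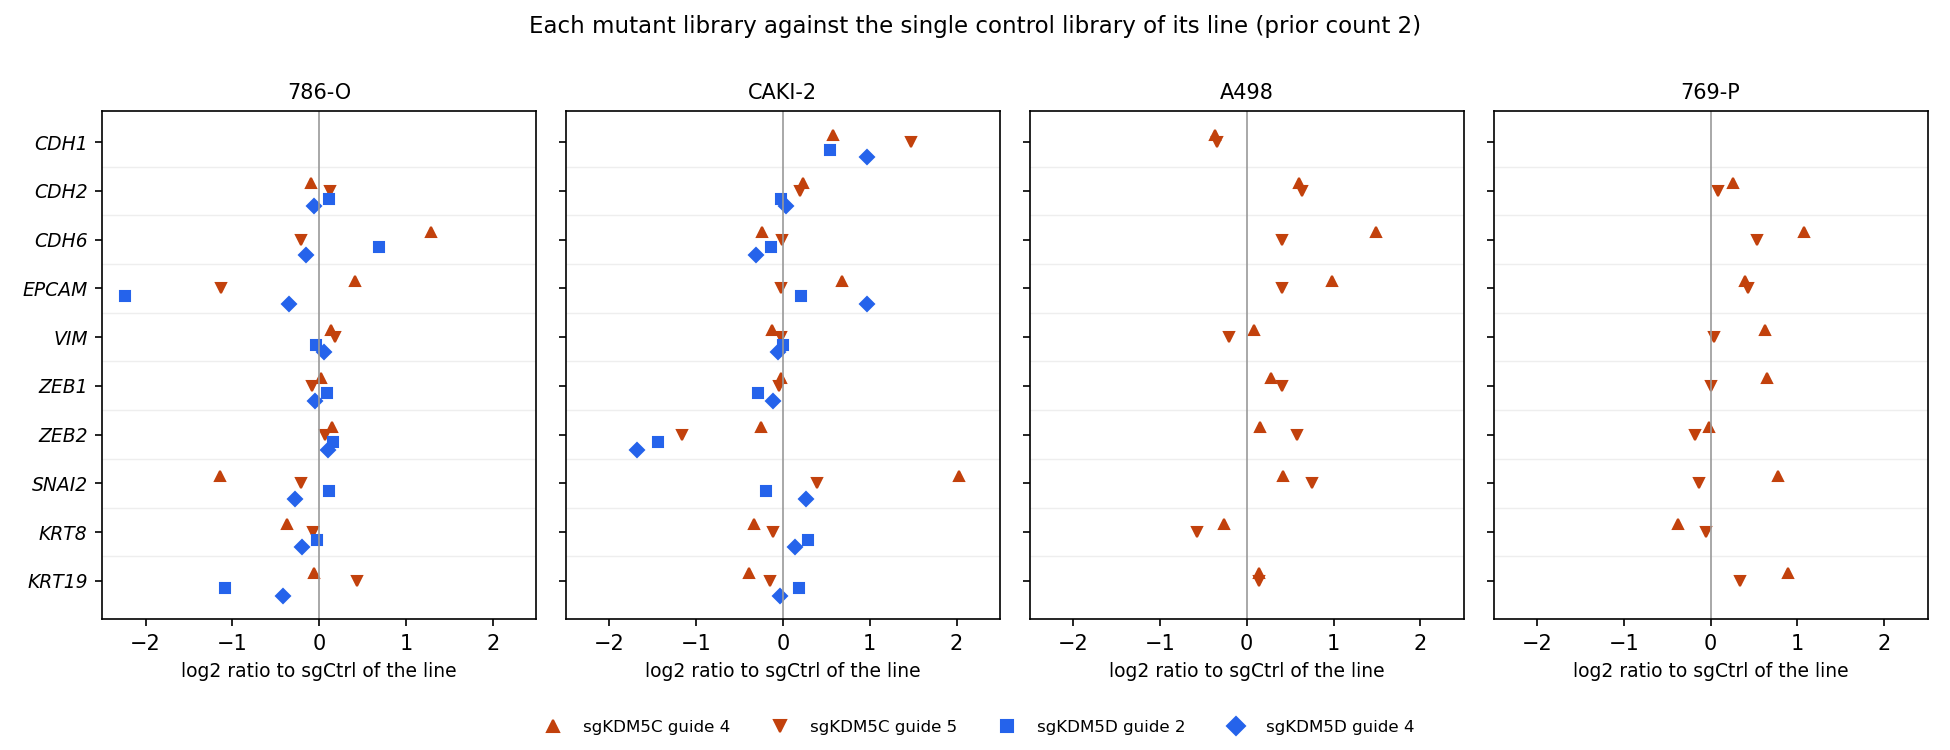
Log2 ratio of each mutant library to the control library of its line (horizontal axis, prior count 2) for the 10 genes (vertical axis), with a panel per line; each point is 1 library, and CDH1 is left out in 786-O and 769-P. KRT8 points of the sgKDM5C guides lie left of 0 in all 4 panels, at -0.57 to -0.05, and CDH6 points of guide 4 lie right of guide 5 except in CAKI-2.

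For sgKDM5C against sgCtrl in each line, the study set its threshold at a p under 0.05 with a log2 fold change beyond 1. For its separate data on 786-O with KDM5C, KDM5D or both mutated, the study used another rule, on adjusted p and a smaller fold change. That other rule was not applied here. The thresholds of the study named in this text are those of the first rule, with p read as unadjusted. They are extended here to sgKDM5D and to pairs of lines. On the present fit this rule found CDH1 for sgKDM5C in CAKI-2, where it found 1.18% of all genes, and ZEB2 for sgKDM5D in CAKI-2, where it found 0.644%. It found SNAI2 for sgKDM5C against sgKDM5D in CAKI-2, with 1.41% of all genes. None of the 10 met it for sgKDM5C in 786-O (2.12% of all genes), A498 (1.89%), 769-P (2.09%) or the mean (1.28%), for sgKDM5D in 786-O (1.52%) or for sgKDM5C against sgKDM5D in 786-O (2.64%).

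Genes of the same adhesion and EMT pathways were examined from lists that include the 10 genes where they belong. No gene of these lists was called in a comparison with a mutant population, so only the lines are described. Against 786-O, CAKI-2 had 63.3%, A498 68.7% and 769-P 50% of all genes called, with median log2 differences of 0.11, 0.17 and 0.0094. The called share and median of each list follow in this order of lines. Genes were tested if their counts summed to at least 60 over all 16 libraries, so a gene could pass through 1 line alone. CDH8, for example, had 34 to 48 counts in each CAKI-2 library and 0 to 1 in each 786-O library. For such a gene the higher level against 786-O was fixed by the filter. The tallies, shares and medians of the lists are therefore descriptions. Of 16 classical and related cadherins tested, 11 were higher and 3 lower in CAKI-2 than in 786-O. Relative to 786-O, A498 had 10 higher and 3 lower, and 769-P had 4 higher and 1 lower. These are 87.5%, 81.2% and 31.2% of the cadherins, the last below the share of all genes, with medians of 3.26, 2.89 and -0.07. Ranked by RPKM, CDH16, the kidney-specific cadherin, stood above CDH2 in CAKI-2 at 32.9 to 57.9 RPKM. CDH17, the liver-intestine cadherin, stood above CDH2 in A498 at 11.2 to 16.8 RPKM. CDH2 ranked highest in 786-O and 769-P. CDH13, a cadherin anchored by a lipid tail, was at 1.26 CPM in CAKI-2 against 44.5 CPM in 786-O (-5.28, SE 0.414, adjusted p = 7.14e-08).

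Catenins link cadherins to the cytoskeleton. Of 6 tested, 2 were higher and 3 lower in CAKI-2 than in 786-O. Against the same line, A498 had 1 higher and 3 lower, and 769-P had 3 higher and 1 lower. The catenin shares were 83.3%, 66.7% and 66.7%, below all genes in A498, and the medians -0.45, -0.94 and 0.37. JUP, the gene of plakoglobin shared by adherens junctions and desmosomes, was at 361 CPM in CAKI-2 against 3.94 CPM in 786-O (6.95, SE 0.369, adjusted p = 1.58e-09), with 74.3 CPM in A498 and 160.0 CPM in 769-P. The 786-O libraries behind this mean held 1.28 CPM (sgCtrl), 9.94 CPM (sgKDM5C guide 4) and 3.27 CPM (guide 5). CTNNA1, the gene of alpha-catenin, was at 957 CPM in 786-O, 361 CPM in CAKI-2, 489 CPM in A498 and 1513 CPM in 769-P.

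Of 22 junction and surface genes tested, 15 were higher and 4 lower in CAKI-2 than in 786-O. Relative to 786-O, A498 had 12 higher and 5 lower, and 769-P had 14 higher and 2 lower. The shares were 86.4%, 77.3% and 72.7% and the medians 1.996, 2.42 and 1.65. DSP, the gene of the desmosomal plaque protein desmoplakin, was at 0.1 CPM in 786-O, 130.0 CPM in CAKI-2, 39.4 CPM in A498 and 145 CPM in 769-P. It was higher in 769-P than in 786-O by 10.44 (SE 0.386, adjusted p = 6.88e-11), although 769-P had no CDH1 count. This fold rests on 3, 3 and 2 DSP counts in the sgCtrl and sgKDM5C libraries of 786-O. OCLN, the gene of the tight junction protein occludin, was at 0.0363 CPM in 786-O and 20.3 CPM in 769-P (8.96, SE 0.359, adjusted p = 1.40e-10). OCLN had 1 count in each sgCtrl and sgKDM5C library of 786-O, so both folds are uncertain in size. CLDN2, which encodes a pore-forming claudin of the proximal tubule, was at 878 CPM in 769-P and 33.1 CPM in 786-O (4.74, SE 0.303, adjusted p = 1.41e-08), against 1.39 CPM in CAKI-2. Of 6 simple keratin genes tested, 5 were higher and 0 lower in CAKI-2 than in 786-O. Against the same line, A498 had 3 higher and 1 lower, and 769-P had 3 higher and 1 lower. For the keratins the shares were 83.3%, 66.7% and 66.7%, below all genes in A498, and the medians 0.91, 0.51 and 0.95. KRT7 was at 56.6 CPM in CAKI-2 and 0.862 CPM in 786-O (6.02, SE 0.343, adjusted p = 3.15e-09).

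Of 11 EMT transcription factors tested, 5 were higher and 6 lower in CAKI-2 than in 786-O. Relative to 786-O, A498 had 4 higher and 6 lower, and 769-P had 2 higher and 5 lower. The factors called made up 100%, 90.9% and 63.6% of the list, with medians of -0.46, -1.08 and -0.66. SNAI1, the paralogue of SNAI2, was found in every line, at 32.1 CPM in 786-O, 12.3 CPM in CAKI-2, 47.2 CPM in A498 and 11.3 CPM in 769-P. It was higher in A498 than in CAKI-2 by 1.93 (SE 0.213, adjusted p = 2.15e-06), as ZEB2 was. Per length SNAI1 was at 4.50 to 30.9 RPKM and exceeded ZEB1, ZEB2 and SNAI2 in 15 of 16 libraries, the exception being sgKDM5C guide 4 of 769-P, where ZEB1 was at 5.09 RPKM. This rank depends on the merged exon lengths, since in CPM the 786-O control held 27.5 of SNAI1 against 31.3 of ZEB2. TCF4, an E2-box binding factor, was at 27.6 CPM in 786-O and 0.163 CPM in A498 (-7.43, SE 0.376, adjusted p = 7.28e-10), where it had 5, 5 and 1 counts. FOXC1, a forkhead factor, was at 155 CPM in CAKI-2 and 4.07 CPM in 786-O (5.26, SE 0.186, adjusted p = 4.84e-11), and FOXC2 was at 37.5 CPM in 769-P and 0.950 CPM in A498. Of the other factors, TWIST1 and TWIST2 had 0 to 2 counts in any line.

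Of 10 factors that maintain epithelial identity, 6 were higher and 3 lower in CAKI-2 than in 786-O. Against the same line, A498 had 4 higher and 2 lower, and 769-P had 5 higher and 2 lower. Called shares were 90%, 60% and 70%, below all genes in A498, and medians were 2.40, 1.498 and 1.21. ELF3, an epithelial ETS factor, was at 27.0 CPM in 786-O, 176 CPM in CAKI-2, 286 CPM in A498 and 38.5 CPM in 769-P. In 786-O it was at 54.2 CPM with sgKDM5C guide 4, against 18.3 CPM in the control and 17.3 CPM with guide 5. Of 21 mesenchymal structural genes tested, 7 were higher and 10 lower in CAKI-2 than in 786-O. Relative to 786-O, A498 had 11 higher and 9 lower, and 769-P had 6 higher and 10 lower. The mesenchymal shares were 81%, 95.2% and 76.2% and the medians -0.47, 0.58 and -0.19. MYL9, a myosin light chain gene of contractile cells, was at 70.7 CPM in 786-O and had no count in any CAKI-2 library. TPM2, a tropomyosin gene, was at 492 CPM in 769-P and 15.6 CPM in 786-O (4.999, SE 0.198, adjusted p = 1.22e-10). Of 14 genes of the TGF-beta pathway, an inducer of EMT, 5 were higher and 6 lower in CAKI-2 than in 786-O. Against the same line, A498 had 3 higher and 3 lower, and 769-P had 7 higher and 4 lower. Of this pathway 78.6%, 42.9% and 78.6% were called, in A498 below all genes, with medians of -0.29, -0.13 and 0.35. TGFB2, a ligand, was at 99.1 CPM in 786-O, 21.0 CPM in CAKI-2, 23.0 CPM in A498 and 1.05 CPM in 769-P (-6.61 for 769-P against 786-O, SE 0.349, adjusted p = 2.00e-09).

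The genes most like each of the 10 over the 16 libraries were found by the Pearson correlation of log2 CPM among 12075 genes that averaged at least 100 counts. Since libraries of a line share their source, such a correlation mainly compares 4 line levels and is a description. CDH1 was most like EWSAT1, KLRG2 and PRR15 (each r = 0.994), and CDH2 most like DIAPH3 (0.992), SKA3 (0.991) and KPNB1 (0.99). KRT19 was closest to SNAP25 (0.991), VIM to RSU1 (0.99) and ZEB1 to LYPLA1 (0.989). ZEB2 was closest to FLNC (0.984), CDH6 to TERF1 (0.979), SNAI2 to LINC02984 (0.971), KRT8 to KAT2A (0.971) and EPCAM to RELN (0.963). Among the 10 themselves, CDH2 and ZEB1 had the highest correlation (0.962) and EPCAM and ZEB2 the lowest (-0.905).

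The libraries held 23.4M to 41.6M counts. A list of tubule genes that also held CA9 was checked for the labelled kidney origin. In at least 1 library, 1 CPM was reached by 8 of 10 in A498, by 7 each in 769-P and CAKI-2 and by 5 in 786-O. CA9, a marker of ccRCC and not of the normal tubule, reached 1 CPM in A498 only and is among the 8 there. PAX2, PAX8, CDH16 and CUBN did so in all 4 lines, whereas LRP2, AQP1, EMX2 and CA9 were among those below it in 786-O. Of the leukocyte, endothelial and fibroblast markers, the summed levels per library were 0.370 to 9.11, 0.0711 to 3.36 and 5.64 to 42.3 CPM. The highest of these came from CSF1R in 786-O, VWF and CDH5 in CAKI-2 and COL1A1 in A498, and PTPRC and CD3E were not among the markers at 1 CPM in any line. The part of such markers in the results was not tested.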

How the data were processed

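Read counts per gene, as the authors deposited them, came from total RNA of the edited populations (Illumina TruSeq Stranded libraries). The submitters' processing notes name Trimmomatic 0.38, STAR 2.5.2b and GRCh37. The counting tool, annotation release and use of strand are not given in the sources used here. Values were checked to be whole numbers, and 55538 of 57773 genes were matched to symbols. Library totals ran from 23.4M (M for mega) up to 41.6M, with TMM factors of 0.935 to 1.07.

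Samples were grouped by line and guide target (10 groups), with guides as replicates. The 20175 genes with at least 60 counts in sum were tested by edgeR 4.0.16 (R 4.3.3) with a quasi-likelihood F-test. A single fit held all 16 libraries and a mean for each group, which left 6 residual degrees of freedom and gave a biological coefficient of variation of 15.2%. Adjustment was by Benjamini-Hochberg across the genes tested. SE was computed as the absolute log2 fold change over the root of F. RPKM were computed from CPM and the merged exon length of each gene in GRCh37 coordinates. Levels of a line quoted for list genes are means of its sgCtrl and sgKDM5C groups.

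The genes and lists were chosen with earlier results of these data known. List genes were named if called and averaging at least 20 counts, up to 3 per list and direction. TWIST1 and TWIST2 were named after their values were seen. PECAM1 and LHX1 were among the list genes not matched, and some list genes that met the rule are not reported here. Guide numbers did not pair the libraries. The procedure was tested on simulated data. Tried as alternatives were size factors by RLE, a Wald test in DESeq2 1.42.0, other count filters, subsets of libraries, fits per line, a replicate block and the thresholds of the study. A fit without the sgKDM5C guide 4 libraries of 786-O and 769-P was chosen after seeing the data.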

Additional observations from a re-analysis of the deposited data

How the results depend on the processing

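Of 71 differences of single genes followed through the alternatives, 43 were past the threshold, and 31 of these stayed past it in every alternative run. Over 837 pairs of a difference and an alternative, 776 kept direction and side, 26 were no longer past the threshold, 23 were newly past it and 12 had the other sign, none of them for a difference past the threshold. The cause of these changes was not tested.

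The number of the 10 genes called for 769-P against 786-O was 5 to 8 without sgKDM5C replicate 4 or 5. For 769-P against 786-O, all genes called numbered 6028 to 10662 over 12 alternatives, against 10083 in the main fit. The thresholds of the study called 8999 of 20175 genes for A498 against CAKI-2 and 8628 for 769-P against CAKI-2. The main fit called 13280 and 12869 for these pairs. For A498 against CAKI-2 the number of the 10 genes called was 5 under these thresholds. For 769-P against CAKI-2 it was 4 under these thresholds, which leave out smaller folds by construction, and 4 with the sgCtrl libraries alone. Testing every gene with at least 1 count gave 1 call (CDH6) for sgKDM5C in A498, 1 in 769-P and 1 for the mean of the lines, and 1 (KRT19) for sgKDM5C against sgKDM5D in 786-O. Over all alternatives, the thresholds of the study included, all genes called numbered 0 to 381, 0 to 421, 0 to 304 and 0 to 533. The main fit called 1, 1, 2 and 13 in the same order. Of the highest values, 381, 421 and 533 are the numbers under the thresholds of the study. The number of all genes called when testing every gene with at least 1 count is not given here. Whether the CDH6 and KRT19 calls stand out from it was not tested. Leaving out 1 sgKDM5C replicate gave 0 to 1 calls in 769-P (VIM) and 0 to 1 for the mean (CDH6), both without replicate 5. Leaving out 1 replicate for sgKDM5C against sgKDM5D in 786-O gave 0 to 1 calls (KRT19). KRT19 was also the 1 call there with DESeq2 and the 1 call without the sgKDM5C guide 4 libraries of 786-O and 769-P. The thresholds of the study gave 1 gene for sgKDM5C in CAKI-2, 1 for sgKDM5D in CAKI-2 and 1 for sgKDM5C against sgKDM5D in CAKI-2.

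The sign turned for 3 differences near 0. ZEB2 in A498 against 786-O (0.12) was -0.0005 with every gene of at least 1 count, -0.0128 with the sgCtrl libraries alone and -0.009 to 0.19 without replicate 4 or 5. VIM in A498 against CAKI-2 (0.02) was -0.0143 with RLE size factors, -0.0143 with DESeq2, -0.0539 with filterByExpr, -0.0829 with every gene of at least 1 count, -0.0445 in the fit of the 12 sgCtrl and sgKDM5C libraries, -0.0435 without the sgKDM5C guide 4 libraries of 786-O and 769-P and -0.15 to 0.11 without replicate 4 or 5. SNAI2 in A498 against CAKI-2 (0.21) was -0.21 with the sgKDM5C libraries alone and -0.22 to 0.76 without replicate 4 or 5.

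Differences between sgKDM5C guides 4 and 5 correlated between lines at r of -0.22 to 0.29 over 12075 genes, and those between sgKDM5D guides 2 and 4 at -0.06, so that guide numbers did not pair the libraries. A replicate block for guide number gave 9, 9, 5, 8, 7 and 9 of the 10 called in the 6 pairs of lines and 0 in each mutant comparison, and changed none of these counts. DESeq2 was not run for the joint test of differences between lines. Testing every gene with at least 1 count moved the median of all genes by -0.12 to 0.10 (log2). Precision is limited by the lack of replicated controls and, for CDH1 in 786-O, A498 and 769-P, by 0 to 5 counts per library. For KRT19 in 769-P it is limited by 2 to 6 counts per library.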
